A study of Homo sapiens with 14 samples.

Results

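The genes described here code for fucosyltransferases, the enzymes that move fucose from GDP-fucose onto glycans and proteins. Members were chosen by gene symbol (FUT1, FUT2, FUT3, FUT4, FUT6, FUT8, FUT10, FUT11, POFUT1 and POFUT2). All 10 were among the 27819 genes held in each of the 4 deposited count tables. RNA was sequenced from CWR22Rv1 cells, an established line grown from a prostate cancer xenograft. Of the 14 libraries, 3 were from cells that received DMSO alone. The others were from cells given Fucotrim I at 30 μM (3 libraries), Fucotrim II at 60 μM (2), SGN-2FF at 100 μM (3) and P-SiaFNEtoc at 2 μM (3), each for 72 h. The study describes the Fucotrims as rhamnose-1-phosphate derivatives aimed at GMDS in de novo GDP-fucose synthesis, SGN-2FF as 2-fluorofucose, and P-SiaFNEtoc as a sialylation inhibitor. It also states that the Fucotrims lower GDP-mannose levels and that both induced apoptosis in these cells. In this line, fucose-binding lectin signal fell too little with Fucotrim I for an IC50 to be given. All groups are treatments of 1 cell line, and each inhibitor was given at its own dose, so the inhibitors were compared with DMSO and not with each other.

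Fucosyltransferases differ in the acceptor they use and in the bond they make. FUT1 and FUT2 add fucose to terminal galactose and make the H antigen, the base of the ABO blood groups. FUT3, FUT4 and FUT6 add fucose to N-acetylglucosamine and make Lewis-type antigens. FUT8 makes the core fucose at the base of N-glycans. POFUT1 and POFUT2 work in the endoplasmic reticulum and put fucose directly on serine or threonine, POFUT1 on EGF-like repeats such as those of Notch and POFUT2 on thrombospondin type repeats. FUT10 and FUT11 were classed by sequence with the Lewis-type enzymes and have more recently been described as protein O-fucosyltransferases. GDP-fucose is made from GDP-mannose by GMDS and GFUS, or from free fucose by FCSK and FPGT.

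The libraries held between 12553094 and 19981453 counts on genes. Mitochondrially encoded genes took 5.98 to 7.03% of counts with DMSO, 8.67 to 14.2% with Fucotrim I, 12.2 to 17.0% with Fucotrim II, 8.27 to 8.69% with SGN-2FF and 6.11 to 6.83% with P-SiaFNEtoc. All 8 luminal prostate markers were above 1 CPM (counts scaled for library size) in every group, with a summed level of 2152 to 2234 CPM with DMSO and 2993 to 3084 CPM with Fucotrim I, 2801 to 3105 CPM with Fucotrim II, 2693 to 2828 CPM with SGN-2FF and 2478 to 2538 CPM with P-SiaFNEtoc. Of 11 markers of basal, immune, endothelial and stromal cells, CD68 and COL1A1 passed 1 CPM in each group. The list summed to 23.1 to 24.2 CPM with DMSO, 23.9 to 31.0 CPM with Fucotrim I, 30.4 to 36.3 CPM with Fucotrim II, 24.1 to 27.5 CPM with SGN-2FF and 25.4 to 27.5 CPM with P-SiaFNEtoc. Of that list 1 gene was at 0 in all DMSO libraries, 2 in Fucotrim I, 4 in Fucotrim II, 3 in SGN-2FF and 3 in P-SiaFNEtoc. The part of either marker list in the results was not tested, and for the mitochondrial share only a fit without those genes was tried. These are bulk samples, in which fewer cells of a kind and less RNA per cell cannot be told apart.

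FUT3 and FUT6, which make Lewis antigens, were too low to judge. FUT3 (NCBI gene 2525, hg38 chromosome 19, 5842888 to 5851471, minus strand) had 1, 2 and 1 counts in DMSO replicates 1 to 3. It had 2, 0 and 2 counts with Fucotrim I, 2 and 3 with Fucotrim II, 0 in each SGN-2FF library, and 3, 1 and 2 with P-SiaFNEtoc. FUT6 (NCBI gene 2528, chromosome 19, 5830408 to 5839722, minus strand) had 0 counts in 12 of the 14 libraries and 1 count in P-SiaFNEtoc replicates 1 and 3. Over the 3 DMSO libraries together, 0 counts of FUT6 allow up to 0.0594 CPM, taken at 3 counts, a limit that covers counting error only. Neither gene passed the filter on low counts in any comparison, so no fold change is given for them.

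FUT3 and FUT6 lie 3.16 kb apart, and together with FUT5, which is no member, they are near copies of each other. Their coding sequences were identical at 93.9% of aligned bases between FUT3 and FUT5, 90.9% between FUT3 and FUT6 and 93.3% between FUT5 and FUT6. The longest coding run that all 3 share was 229 bases, longer than the 100-base reads, so a read inside it cannot be given to 1 of the genes. The stretch below is shown because it holds 50 bases before that run and the first 100 bases of it. It is read from hg38 on the minus strand at chr19:5844008-5844157 for FUT3, chr19:5866855-5867004 for FUT5 and chr19:5831739-5831888 for FUT6, 5′ to 3′, with capitals at the 3 positions where the genes differ.

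FUT3: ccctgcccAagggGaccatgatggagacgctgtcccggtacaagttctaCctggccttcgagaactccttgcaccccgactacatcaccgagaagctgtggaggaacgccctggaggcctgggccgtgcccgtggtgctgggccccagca
FUT5: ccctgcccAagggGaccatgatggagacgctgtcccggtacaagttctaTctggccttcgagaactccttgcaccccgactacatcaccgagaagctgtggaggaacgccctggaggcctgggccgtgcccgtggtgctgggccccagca
FUT6: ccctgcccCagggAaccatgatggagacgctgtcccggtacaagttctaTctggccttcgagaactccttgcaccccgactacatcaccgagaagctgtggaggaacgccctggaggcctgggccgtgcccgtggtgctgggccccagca

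Only reads that cover one of the capitals separate the genes in this stretch, and at each capital 2 of the 3 genes carry the same base. Of all 100-base windows in the exons of FUT3, 8.58% occur in another gene, and the figure for FUT6 was 4.85%. How the counting treated reads that match several places is not given in the sources used here. The counts of both genes are therefore uncertain as well as low.

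The other 8 members had at least 33 counts in every library and were tested in all 4 comparisons. Their levels are compared between genes as CPM per kb of exon, after TMM scaling over all 14 libraries, and all other levels are in CPM. With DMSO the order per kb was POFUT1, POFUT2, FUT1, FUT11, FUT8, FUT10, FUT2 and FUT4. POFUT1 (NCBI gene 23509, chromosome 20, 32207855 to 32238658, plus strand) stood at 12.4 ± 0.798 CPM per kb (SD, n = 3) and took 37.4% of the level summed over the members. POFUT2 (NCBI gene 23275, chromosome 21, 45263928 to 45287898, minus strand) followed at 6.81 ± 0.422 CPM per kb (n = 3), or 20.5% of that sum. The DMSO libraries of neighbours in this order overlapped for FUT2 and FUT4 and for no other pair of tested members.

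FUT1 (NCBI gene 2523, chromosome 19, 48748011 to 48755390, minus strand) had the highest level among the enzymes that act on glycans, at 4.99 ± 0.0458 CPM per kb (SD, n = 3) with DMSO. FUT2 (NCBI gene 2524, chromosome 19, 48695971 to 48705951, plus strand) makes the same linkage and lies 42.1 kb from FUT1, and it stood at 0.860 ± 0.0582 CPM per kb. FUT11 (NCBI gene 170384, chromosome 10, 73772276 to 73780251, plus strand) was at 3.12 ± 0.163 CPM per kb. FUT10 (NCBI gene 84750, chromosome 8, 33370824 to 33473146, minus strand) was at 1.78 ± 0.136 CPM per kb. FUT8 (NCBI gene 2530, chromosome 14, 65410592 to 65744121, plus strand), the only gene for core fucose, was at 2.42 ± 0.0426 CPM per kb. FUT4 (NCBI gene 2526, chromosome 11, 94543921 to 94549895, plus strand), which was the only Lewis-type member with counts enough to test, was at 0.745 ± 0.120 CPM per kb. Measured over the longest transcript instead of all exons, FUT11 (6.38) passed FUT1 (6.33) and the rest of the order held.

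Overlaps with other genes could touch some of these counts. FUT4 shares 10.1% of its exon bases with PIWIL4 on the same strand. On the opposite strand, 11.8% of the exon bases of FUT8 lie in FUT8-AS1, 5.29% of those of POFUT2 in LINC00334, and 11.9% of those of FUT11 in an unnamed gene. The libraries were stranded, but the strand setting of the counting is not given, so reads of such partners could not be separated. FUT2 shares 1.95% of its 100-base windows with SEC1P, a nearby pseudogene. FUT8 shares 10.2% of its windows with many other genes, FUT8-AS1 among them, the highest share of any member. How reads that match several places were counted is not given. FUT1, FUT10 and POFUT1 had no opposite-strand partner and no 100-base exon window found in another gene.

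**Figure D1:**
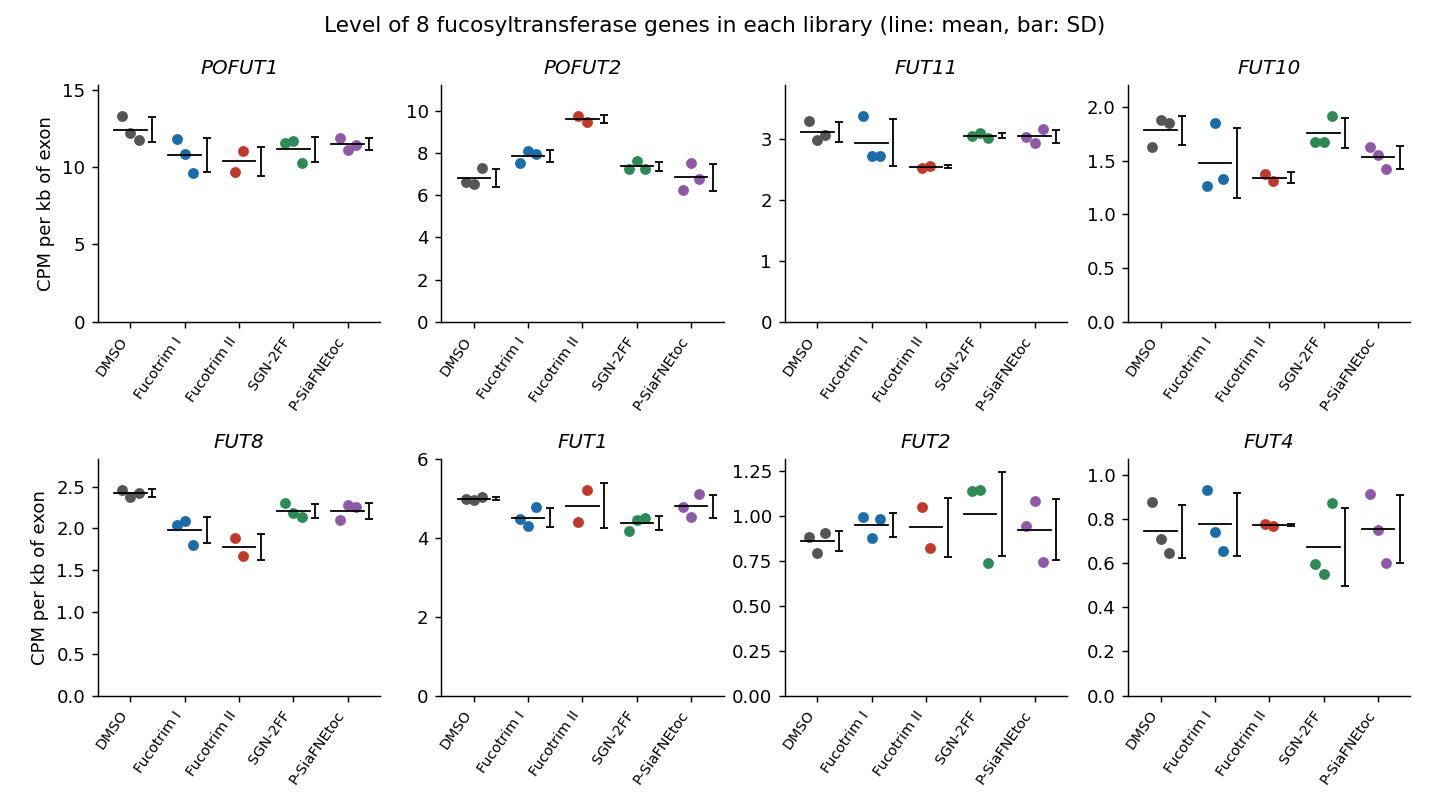
Level of the 8 tested members in every library as CPM per kb of exon (y axis, from 0) by treatment (x axis); points are libraries, lines are means and bars are SD. POFUT2 is highest in the 2 Fucotrim II libraries (9.45 and 9.75 CPM per kb), and for FUT8 every treated library lies below the DMSO libraries. FUT8 was called with the Fucotrims only, and 33.7 to 67.7% of all genes tested had no overlap, depending on the inhibitor.

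With Fucotrim II, POFUT2 rose while POFUT1, FUT8, FUT10 and FUT11 fell, and FUT1, FUT2 and FUT4 did not pass the test. So 5 of the 8 tested members were called at an adjusted p under 0.05, where 51.4% of all 14617 genes tested were called (25.6% higher and 25.7% lower). With Fucotrim I, POFUT2 rose and POFUT1 and FUT8 fell, so 3 of 8 members were called beside 43.8% of 14188 genes (21.6% higher and 22.1% lower). The share of members called was thus near that of all genes with both Fucotrims. The median log2 fold change of the tested members was -0.16 with Fucotrim II and -0.10 with Fucotrim I, beside 0.01 and 0.00 over all genes tested. Both comparisons use the same 3 DMSO libraries.

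POFUT2, the fucosyltransferase of thrombospondin type repeats, had 38.8, 38.3 and 42.8 CPM in DMSO replicates 1 to 3. It had 57.2 and 55.4 CPM with Fucotrim II and 44.2, 47.3 and 46.4 CPM with Fucotrim I. Every Fucotrim library was above every DMSO library. The fold change was 1.41 with Fucotrim II (log2 0.49 ± 0.08, SE, adjusted p = 0.000751) and 1.16 with Fucotrim I (log2 0.22 ± 0.07, adjusted p = 0.0140). Among all genes tested, 67.7% had no overlap between Fucotrim II and DMSO libraries, and 52.6% had none with Fucotrim I. The Fucotrim I call was lost without DMSO replicate 1 (adjusted p = 0.0704) or DMSO replicate 2 (0.0683), while the Fucotrim II call held under all 15 alternative settings. In 2 of these settings 1 Fucotrim II library was left out, so the spread came from the DMSO libraries alone and the remaining Fucotrim II library was assumed to vary like them.

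POFUT1, which puts fucose on EGF-like repeats, had 88.4, 80.9 and 78.2 CPM in the DMSO libraries. With Fucotrim II it had 64.5 and 73.3 CPM, and with Fucotrim I 78.4, 72.2 and 64.1 CPM. Both Fucotrim II libraries lay below DMSO, whereas Fucotrim I replicate 1 was just above the lowest DMSO library. Among all genes tested, 67.7% had no overlap with Fucotrim II and 52.6% had none with Fucotrim I. POFUT1 was 1.20-fold lower with Fucotrim II (log2 -0.26 ± 0.08, adjusted p = 0.0204) and 1.14-fold lower with Fucotrim I (log2 -0.19 ± 0.07, adjusted p = 0.0288). Without DMSO replicate 1 neither call held (adjusted p = 0.0992 with Fucotrim II and 0.160 with Fucotrim I). The Fucotrim II call was also lost without DMSO replicate 2 (0.0520) and under the replicate block by title (0.0821), and the Fucotrim I call without Fucotrim I replicate 2 (0.0521) or 3 (0.203, log2 -0.12).

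FUT8, the core fucosyltransferase, had 17.2, 16.6 and 16.9 CPM with DMSO. It had 13.2 and 11.7 CPM with Fucotrim II, 14.2, 14.6 and 12.5 CPM with Fucotrim I, 16.1, 15.2 and 14.9 CPM with SGN-2FF and 14.7, 15.9 and 15.8 CPM with P-SiaFNEtoc. Each treated library was below each DMSO library, and all 4 comparisons rest on the same DMSO libraries. Of all genes tested, 67.7% had no overlap with Fucotrim II, 52.6% with Fucotrim I, 36% with SGN-2FF and 33.7% with P-SiaFNEtoc. FUT8 was not called with SGN-2FF (adjusted p = 0.319) or P-SiaFNEtoc (0.282). FUT8 was 1.37-fold lower with Fucotrim II (log2 -0.45 ± 0.10, adjusted p = 0.00513) and 1.21-fold lower with Fucotrim I (log2 -0.28 ± 0.09, adjusted p = 0.0219). The Fucotrim II call held in all 15 alternatives, with the same limit for the 2 that leave a single Fucotrim II library. The Fucotrim I call was lost without DMSO replicate 1 (adjusted p = 0.0667), DMSO replicate 3 (0.0620) or Fucotrim I replicate 3 (0.102), and with DESeq2 (0.0807).

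FUT10 had 8.68, 10.01 and 9.84 CPM with DMSO and 7.34 and 6.97 CPM with Fucotrim II. The groups did not overlap, as in 67.7% of all genes tested, and FUT10 was 1.33-fold lower (log2 -0.41 ± 0.13, adjusted p = 0.0220). With Fucotrim I it had 6.72, 9.88 and 7.06 CPM, where replicate 2 lay within the DMSO range and the others below it (log2 -0.25 ± 0.14, adjusted p = 0.160). That difference depended on the library left out: it was -0.45 and passed the test without Fucotrim I replicate 2 (adjusted p = 0.0119), -0.13 without replicate 1 (0.501) and -0.17 without replicate 3 (0.423). The Fucotrim II call was lost without DMSO replicate 2 (adjusted p = 0.0700) or DMSO replicate 3 (0.0725), with DESeq2 (0.0913), with quality weights in limma-voom (0.0786) and under the replicate block by title (0.151).

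FUT11 had 16.3, 14.7 and 15.1 CPM with DMSO and 12.5 and 12.6 CPM with Fucotrim II. It was 1.23-fold lower there (log2 -0.30 ± 0.10, adjusted p = 0.0329), again with no overlap, as in 67.7% of all genes tested. The 16.7, 13.4 and 13.4 CPM with Fucotrim I reached above and below DMSO (log2 -0.07 ± 0.10, adjusted p = 0.603). The Fucotrim II call was lost without DMSO replicate 1 (adjusted p = 0.118), DMSO replicate 3 (0.0785) or Fucotrim II replicate 1 (0.0548, with the spread from DMSO alone), with DESeq2 (0.133), with quality weights in limma-voom (0.0917) and under either numbering of the replicate block (0.196 and 0.0927).

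The enzymes that fucosylate terminal galactose did not pass the test with either Fucotrim. FUT1 had 21.7, 21.5 and 21.9 CPM with DMSO, 19.1 and 22.7 CPM with Fucotrim II and 19.4, 18.6 and 20.7 CPM with Fucotrim I. The Fucotrim II libraries fell on both sides of DMSO (log2 -0.06, 95% interval -0.27 to 0.16, adjusted p = 0.655). All Fucotrim I libraries lay below DMSO, with a log2 difference of -0.14 (interval -0.31 to 0.04, adjusted p = 0.192). Of all genes tested, 52.6% had no overlap with Fucotrim I. For FUT2, at 2.68 to 3.05 CPM with DMSO, the differences were 0.12 (interval -0.34 to 0.57) with Fucotrim II and 0.16 (interval -0.23 to 0.54) with Fucotrim I. FUT4, at 3.86 to 5.25 CPM with DMSO, differed by 0.04 (interval -0.35 to 0.44) and 0.07 (interval -0.29 to 0.43). The intervals of FUT2 and FUT4 are wide, and changes of the size seen for FUT8 lie within them.

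With the mitochondrially encoded genes left out before scaling, all 8 calls with the Fucotrims remained and POFUT2 differed by 0.50 with Fucotrim II and 0.22 with Fucotrim I, and FUT8 by -0.44 and -0.27.

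**Figure D2:**
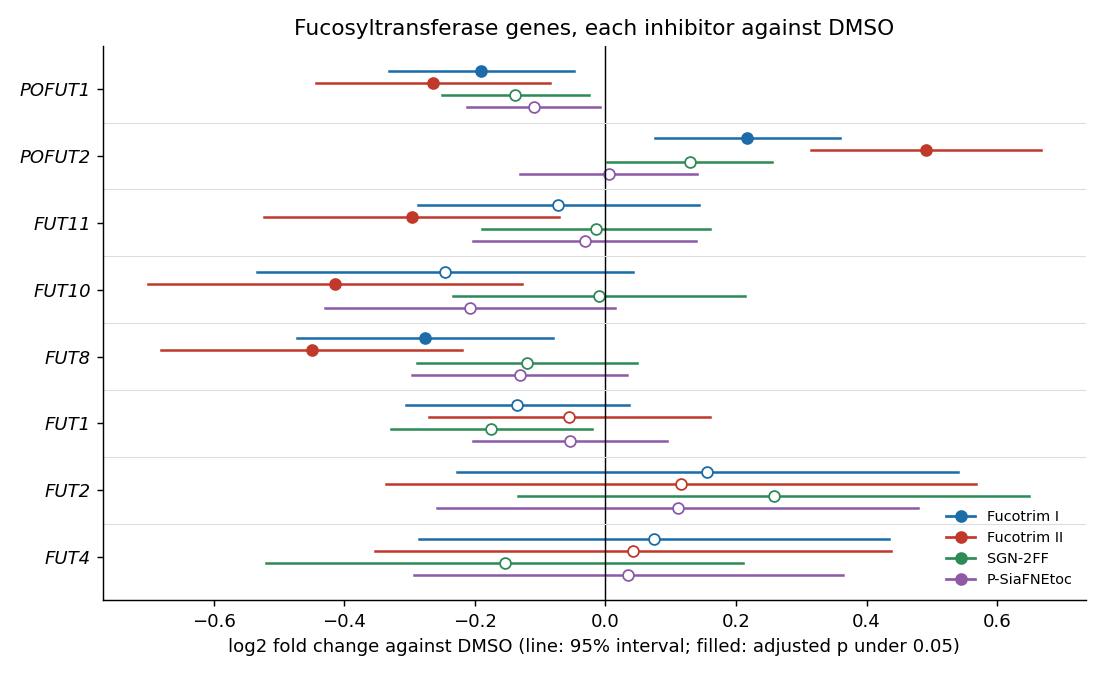
Log2 fold change of each tested member against DMSO (x axis) for the 4 inhibitors; lines are 95% intervals and filled points passed an adjusted p of 0.05. The filled points are 5 with Fucotrim II and 3 with Fucotrim I, and POFUT2 is the only member to the right of 0 among them.

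With SGN-2FF no member was called, where 20.6% of 14312 genes tested were called (11.5% higher and 9.08% lower). FUT1, POFUT1 and POFUT2 had an unadjusted p under 0.05, and DESeq2 and limma-voom with or without quality weights called 0 members. FUT1 had 18.1, 19.3 and 19.5 CPM with SGN-2FF, all below DMSO (log2 -0.17, 95% interval -0.33 to -0.02, adjusted p = 0.0989). POFUT1 had 76.8, 77.6 and 68.0 CPM, also all below DMSO (log2 -0.14, interval -0.25 to -0.03, adjusted p = 0.0737). Without a filter on low counts POFUT1 passed the test (adjusted p = 0.0296). POFUT2 had 42.3, 44.6 and 42.4 CPM and overlapped DMSO (log2 0.13, interval 0.00 to 0.25, adjusted p = 0.140). FUT8 differed by -0.12 (interval -0.29 to 0.05), FUT10 by -0.01 (interval -0.23 to 0.21) and FUT11 by -0.01 (interval -0.19 to 0.16). FUT2 differed by 0.26 (interval -0.13 to 0.65) and FUT4 by -0.15 (interval -0.52 to 0.21). In 3 of the 8 members the SGN-2FF libraries did not overlap those of DMSO, beside 36% of all genes tested.

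With P-SiaFNEtoc, the sialylation inhibitor, no member was called beside 16.3% of 14259 genes tested (9.02% higher and 7.33% lower). POFUT1 alone had an unadjusted p under 0.05, and DESeq2 and limma-voom with or without quality weights again called 0 members. POFUT1 had 78.9, 73.9 and 75.8 CPM (log2 -0.11, 95% interval -0.21 to -0.01, adjusted p = 0.131), and its highest library lay above the lowest of DMSO. FUT10 had 8.69, 8.26 and 7.57 CPM (log2 -0.21, interval -0.43 to 0.01, adjusted p = 0.198). FUT8 differed by -0.13 (interval -0.30 to 0.03, adjusted p = 0.282) and POFUT2 by 0.00 (interval -0.13 to 0.14). The differences of FUT1, FUT2, FUT4 and FUT11 lay between -0.05 and 0.11, with adjusted p from 0.664 to 0.912. FUT8 was the 1 member of 8 with no overlap between these groups, beside 33.7% of all genes tested.

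Because POFUT2 and POFUT1 were called in opposite directions, their ratio was also taken within each library, where scaling cancels. It is given as a description, since it was chosen after the values were seen. Per kb, POFUT2 stood at 0.497, 0.536 and 0.620 of POFUT1 in the DMSO libraries. The ratio was 0.638, 0.743 and 0.822 with Fucotrim I and 1.00 and 0.856 with Fucotrim II, so that both genes were near the same level per kb in Fucotrim II replicate 1. With SGN-2FF it was 0.625, 0.652 and 0.707, and with P-SiaFNEtoc 0.524, 0.676 and 0.593, which overlapped DMSO. The lowest SGN-2FF and Fucotrim I libraries lay close above the highest DMSO library.

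The ratio of FUT8 to POFUT2 is likewise only a description. It sets the member with the lowest log2 fold change with both Fucotrims against the one with the highest, so a shift was bound to appear. The ratio went from 0.333 to 0.373 per kb with DMSO to 0.227 to 0.271 with Fucotrim I and 0.177 to 0.194 with Fucotrim II. It was 0.286 to 0.320 with SGN-2FF and 0.303 to 0.338 with P-SiaFNEtoc. Of the level per kb summed over all 10 members, POFUT1 and POFUT2 together took 57.7 to 58.4% with DMSO and 61.7 to 62.3% with Fucotrim II. FUT10 and FUT11 took 14.5 to 14.99% and 11.8 to 12.4%, FUT8 7.23 to 7.36% and 5.09 to 5.99%, and FUT1 with FUT2 17.2 to 18.0% and 17.3 to 18.4%. The Lewis-type members, nearly all of it FUT4, took 2.02 to 2.63% and 2.50 to 2.58%.

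**Figure D3:**
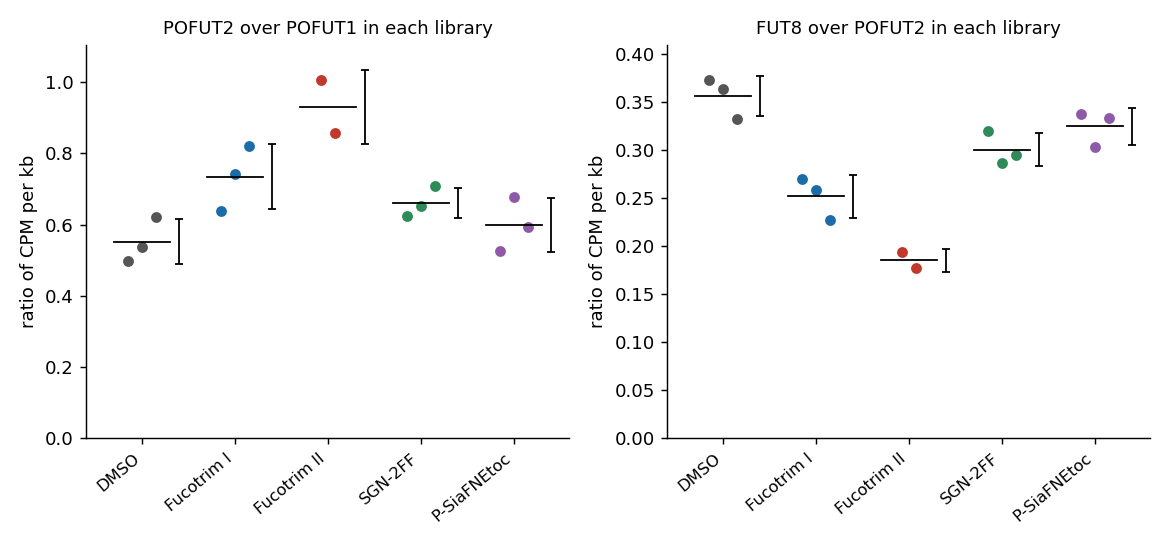
Ratio of POFUT2 to POFUT1 and of FUT8 to POFUT2 in every library, from CPM per kb (y axes, from 0), by treatment; points are libraries, lines are means and bars are SD. POFUT2 over POFUT1 runs from 0.497 in the lowest DMSO library to 1.00 in the highest Fucotrim II library, and FUT8 over POFUT2 from 0.373 down to 0.177. Both ratios are descriptions only, taken between members called in opposite directions with the Fucotrims.

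Among 20 other genes of the fucose pathway, the 3 fringe genes had the largest log2 fold changes of those tested with each Fucotrim. The fringe genes LFNG, MFNG and RFNG code for enzymes that lengthen the O-fucose that POFUT1 attaches, and B3GLCT for the enzyme that adds glucose to the O-fucose that POFUT2 attaches. All 3 fringe genes rose with both Fucotrims. Of all genes tested, 21.6% were called higher with Fucotrim I and 25.6% with Fucotrim II. RFNG, the most abundant in CPM, went from 43.7 to 45.9 CPM with DMSO to 66.7 to 67.7 CPM with Fucotrim I (log2 0.60 ± 0.06, adjusted p = 1.02e-07) and 79.7 to 86.6 CPM with Fucotrim II (log2 0.89 ± 0.07, adjusted p = 1.85e-05). MFNG had 1.31 to 2.07 CPM with DMSO, 2.35 to 3.41 CPM with Fucotrim I (log2 0.84 ± 0.24, adjusted p = 0.00680) and 3.46 to 4.69 CPM with Fucotrim II (log2 1.26 ± 0.24, adjusted p = 0.00215). LFNG rose by a log2 of 0.67 and 1.07 (adjusted p = 0.000365 and 0.000322).

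B3GLCT had 17.5 to 17.8 CPM with DMSO and 12.6 to 13.4 CPM with Fucotrim II, where it was 1.37-fold lower (log2 -0.45 ± 0.10, adjusted p = 0.00344). With Fucotrim II, then, the gene for the enzyme after POFUT2 was lower and POFUT2 higher, while the genes for the enzymes after POFUT1 were higher and POFUT1 lower. This pattern was not tested, and 51.4% of all genes tested were called in that comparison. With Fucotrim I, B3GLCT differed by -0.21 and did not pass the test (adjusted p = 0.0681). SGN-2FF and P-SiaFNEtoc gave no call among these 4 genes. MFNG differed by 0.48 with SGN-2FF (adjusted p = 0.136), with all 3 libraries above DMSO, where 36% of all genes tested had no overlap.

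Of the 8 genes of GDP-fucose supply and turnover, 7 were tested with the Fucotrims. FCSK (fucose kinase) rose with Fucotrim I (log2 0.41 ± 0.06, adjusted p = 3.88e-05) and Fucotrim II (log2 0.60 ± 0.07, adjusted p = 0.000134). SLC35C2, a Golgi transporter family member linked to O-fucose on Notch, rose by a log2 of 0.16 and 0.44 (adjusted p = 0.0304 and 0.000549). FUCA1 (lysosomal fucosidase) rose with Fucotrim II by 0.27 and FPGT, the salvage enzyme after FCSK, fell by 0.35 on the log2 scale (adjusted p = 0.0148 and 0.0198). Neither was under an adjusted p of 0.01, nor was SLC35C2 with Fucotrim I. GMDS, the stated target of the Fucotrims, did not pass the test (log2 -0.17 with Fucotrim I and -0.12 with Fucotrim II, adjusted p = 0.155 and 0.476), nor did SLC35C1, the Golgi GDP-fucose transporter. GFUS had 3 to 15 counts per library, which passed the filter with P-SiaFNEtoc alone. The annotation release and the handling of reads that match several places are not given. Their part in these low counts was not tested.

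Among the 5 genes of GDP-mannose supply, PMM1 (phosphomannomutase) rose with both Fucotrims by a log2 of 0.38 and 0.78 (adjusted p = 3.31e-05 and 3.64e-05) and GMPPA with Fucotrim II by 0.77 (adjusted p = 0.000175). With P-SiaFNEtoc, MPI (mannose phosphate isomerase) and PMM2 rose by 0.19 and 0.14 (adjusted p = 0.0101 and 0.0283). The number of pathway genes called with P-SiaFNEtoc was 1 without any 1 of the DMSO libraries or without P-SiaFNEtoc replicate 1, and 0 without P-SiaFNEtoc replicate 2. In all, 6 of 16 tested genes were higher and 0 lower with Fucotrim I, 8 were higher and 2 lower with Fucotrim II, 0 of 16 were called with SGN-2FF and 2 of 17 were higher with P-SiaFNEtoc. Of all genes tested, 43.8% were called with Fucotrim I (21.6% higher and 22.1% lower) and 51.4% with Fucotrim II (25.6% higher and 25.7% lower). The share was 20.6% with SGN-2FF and 16.3% with P-SiaFNEtoc. With the Fucotrims the pathway genes called in either direction were near the share of all genes. By direction, more of the pathway genes were higher and fewer lower than among all genes, which was not tested. With SGN-2FF, 2 of these genes had an unadjusted p under 0.05, DESeq2 and limma-voom called 0 and limma-voom with quality weights called 1. The median log2 fold changes over these genes were 0.05, 0.21, 0.06 and 0.08 with Fucotrim I, Fucotrim II, SGN-2FF and P-SiaFNEtoc, beside 0.00, 0.01, 0.00 and 0.00 over all genes tested. FUT5, FUT7 and FUT9, the fucosyltransferases on these lists, had 0 to 6 counts per library and were not tested.

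**Figure D4:**
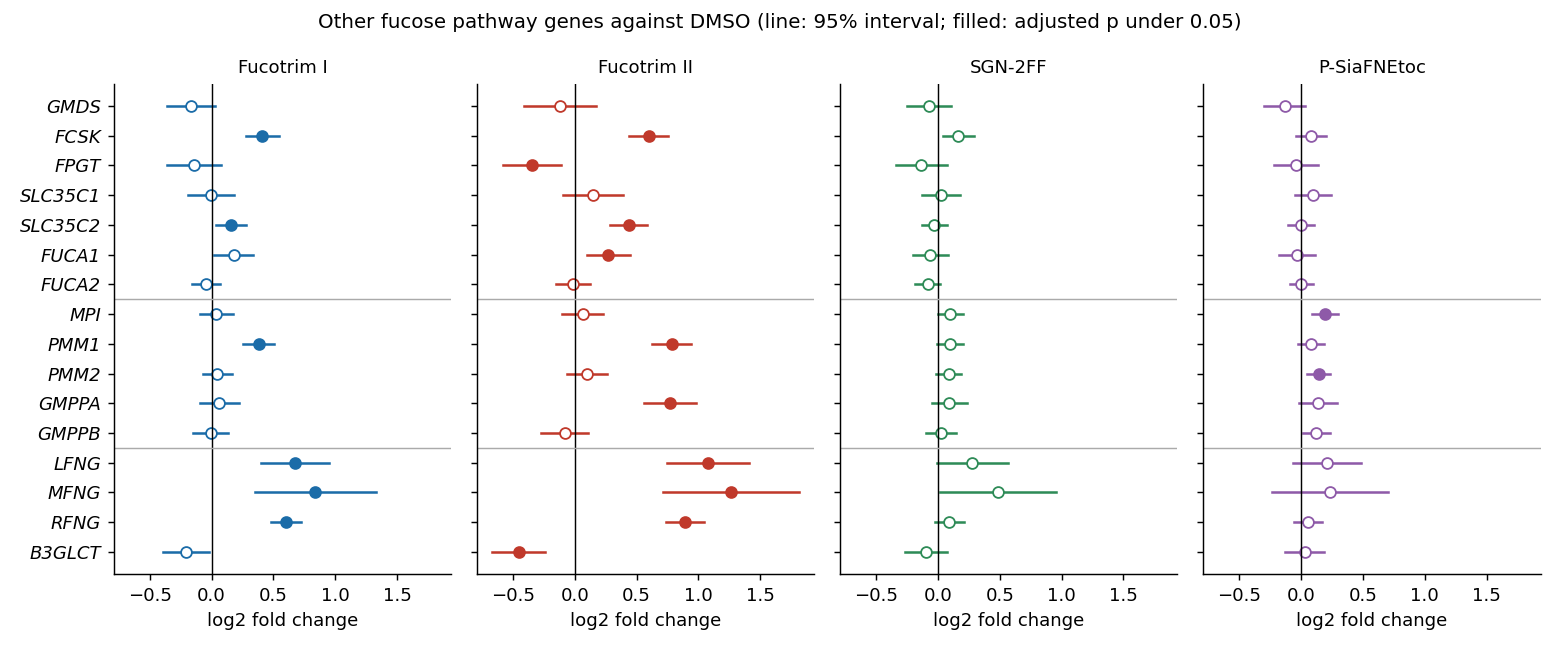
Log2 fold change against DMSO (x axis) of 16 other fucose pathway genes in 4 panels, 1 per inhibitor; lines are 95% intervals, filled points passed an adjusted p of 0.05, and horizontal rules part GDP-fucose supply, GDP-mannose supply and O-fucose extension. The fringe genes lie farthest to the right with both Fucotrims, up to 1.26 for MFNG with Fucotrim II.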

How the data were processed

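RNA from CWR22Rv1 cells was sequenced by the authors as stranded mRNA libraries with single reads of 100 bases, which they trimmed with Cutadapt, mapped to hg38 with HISAT2 and assigned to genes in Galaxy (featureCounts). The deposited values are whole-number counts without normalization, in 4 tables with the DMSO libraries in each. The annotation release, the strand setting and the handling of multimapping reads are not given in the sources used here. The study names 3 biological repeats of each treatment. The deposited counts hold 2 libraries for Fucotrim II, and both were used. DMSO counts were identical in the 4 tables, and no 2 libraries of a group agreed within sampling noise. Genes were matched by NCBI gene number. Positions, exon lengths (union over GENCODE transcripts) and sequences come from hg38.

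Each inhibitor was fitted alone with DMSO in edgeR 4.0.16 (R 4.3.3). Genes passing filterByExpr (at least 10 counts, total at least 15) were scaled by TMM, and tested by the robust quasi-likelihood test with Benjamini-Hochberg adjustment over all genes tested (threshold 0.05). The fit was also run on simulated counts with far fewer changed genes than were called here, a setting unlike these comparisons. The study's tool, limma-voom (limma 3.58.1), DESeq2 1.42.0, other scaling, filters, replicate blocks and leaving out each library were alternatives. Figures used matplotlib. Members and lists were chosen with earlier results of these data known. Members called and the most changed called gene of the pathway lists in each direction are named, along with further genes of those lists. Genes most like a member in pattern were to be named for members called in 3 or more comparisons, and there were none.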

Additional observations from a re-analysis of the deposited data

How the results depend on the processing

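Over all alternatives, 433 values of the members' log2 fold changes kept the direction and the side of the threshold, 24 lost a call, 2 gained one and 21 changed sign. The calls of POFUT2 and FUT8 with Fucotrim II held in all 15 alternatives, 2 of which leave a single Fucotrim II library and take the spread from DMSO alone. Without 1 library the number of members called ranged from 0 to 3 with Fucotrim I (0 without DMSO replicate 1, 1 without Fucotrim I replicate 3) and from 3 to 5 with Fucotrim II (3 without any 1 of the DMSO libraries). Fucotrim II members called were 3 with DESeq2 and 3 with limma-voom and quality weights. The number of all genes called fell in these settings too. With Fucotrim I it was 6209 of 14188 tested, 5101 of 14382 without DMSO replicate 1 and 4877 of 14372 without Fucotrim I replicate 3. With Fucotrim II it was 7511 of 14617, and 5916 to 5960 without 1 of the DMSO libraries. It was 6196 of 14890 with DESeq2 and 6490 of 14617 with quality weights. At an adjusted p under 0.01 the members called were 0 with Fucotrim I and 2 with Fucotrim II. Without a filter on low counts 1 member (POFUT1) was called with SGN-2FF. Of the other pathway genes, 0 to 1 were called with SGN-2FF without 1 library and 1 with limma-voom and quality weights. With P-SiaFNEtoc 0 to 2 were called without 1 library, 1 with DESeq2, 0 in the fit of all 14 libraries and 0 under 0.01. The cause of these shifts was not tested.

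Whether the replicate numbers pair the samples was not settled. Correlations of same-numbered deviations were 0.0493 to 0.266 with Fucotrim I, -0.161 to 0.152 with SGN-2FF and -0.136 to 0.0645 with P-SiaFNEtoc. With Fucotrim II they were -0.382 to -0.264 by the numbers of the titles and 0.171 to 0.382 by those of the library names, which differ. The deviations of the 2 Fucotrim II libraries mirror each other, so for DMSO replicate 2 the numberings give the same value with opposite sign. The block took all genes called from 6209 to 7288 with Fucotrim I, 2946 to 2868 with SGN-2FF and 2331 to 2674 with P-SiaFNEtoc. With Fucotrim II it took them from 7511 to 5300 by title and to 7779 by library name. With the replicate block, members called stayed at 3 with Fucotrim I and 0 with SGN-2FF and P-SiaFNEtoc, and pathway genes called with Fucotrim I went from 6 higher and 0 lower to 7 higher and 1 lower. With Fucotrim II the members called were 2 with the block by title, where FUT10, FUT11 and POFUT1 were lost, and 4 with the block by library name, where FUT11 was lost.

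All differences that changed sign were of members that had not passed the test. With the title block FUT4 differed by -0.0353 with Fucotrim II, and with quality weights POFUT2 by -0.000477 with P-SiaFNEtoc. Without 1 library the ranges that crossed 0 were -0.189 to 0.0595 for FUT1 and -0.0704 to 0.279 for FUT2 with Fucotrim II, -0.00868 to 0.231 for FUT2 with P-SiaFNEtoc, -0.0806 to 0.0283 for FUT10 and -0.0511 to 0.0218 for FUT11 with SGN-2FF, and -0.0663 to 0.00836 for FUT11 with P-SiaFNEtoc. For FUT4 they were -0.0726 to 0.207 with Fucotrim I, -0.0506 to 0.171 with Fucotrim II and -0.143 to 0.169 with P-SiaFNEtoc, and for POFUT2 -0.0698 to 0.0734 with P-SiaFNEtoc.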
